A study of Mus musculus with 12 samples.

Results

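Histone acetylation was examined at 8 transcription factor genes linked to T helper lineages other than Th17: Tbx21, Eomes, Gata3, Foxp3, Bcl6, Prdm1, Maf and Ahr. Among them, Maf and Ahr also serve Th17 cells. Each gene was taken with its annotated span and 20 kb on each side, and all peaks and tested regions located there were used. These are 8 of 21887 protein-coding genes of the mouse annotation, and their windows hold 38 of the 40909 regions in the authors' deposited table of differential acetylation. The mark was H3K9/14ac, acetylation of histone H3 at lysines 9 and 14, which lies over active promoters and enhancers. The tested cells carried a floxed Slc2a3 (Slc2a3-fl/fl) together with Cd4-cre, a Cre that acts in T cells (KO), and so lack the glucose transporter GLUT3. They were set against wild type cells (WT), and the sources used here do not say whether the WT cells carried Cre. All cells came from C57BL/6 mice. All were naive CD4+ T cells polarised towards Th17 in culture for 3 days and then stimulated for 3 h with PMA and ionomycin while Bref A and Monensin were present. There were 3 KO and 3 WT ChIP libraries, barcoded in the nuclei and pooled into 1 immunoprecipitation (RELACS), and the 3 KO and 3 WT input libraries were not analysed here. Whether the 3 libraries of a genotype stem from different animals is not stated in the labels, and p-values therefore cover a spread that may be technical.

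Helper T cells commit to a lineage under master transcription factors that also restrain each other. T-bet (Tbx21) and its relative Eomes drive the interferon gamma programme of Th1 cells, GATA3 the IL-4 and IL-13 programme of Th2 cells, Foxp3 the regulatory T cells and Bcl6 the follicular helper cells. Blimp-1 (Prdm1) and Bcl6 repress each other's genes, c-Maf (Maf) promotes IL-10 and IL-21, and the aryl hydrocarbon receptor (Ahr) senses ligands and promotes IL-22, so Maf and Ahr also serve Th17 cells.

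RefSeq gives promoter windows (250 bases before to 50 after a start site, build GRCm38.p6) for Tbx21, Gata3, Foxp3, Bcl6, Prdm1 and Eomes. Those printed here are both Bcl6 starts, the upper of which lies under the tallest summits among these genes, and the starts of Tbx21, Gata3 and Prdm1, the genes whose covered length was called higher in KO. Each runs 5′ to 3′ on the minus strand, and capitals mark matches to the motifs searched on both strands.
Bcl6, upper start, chr16:23988803-23989102: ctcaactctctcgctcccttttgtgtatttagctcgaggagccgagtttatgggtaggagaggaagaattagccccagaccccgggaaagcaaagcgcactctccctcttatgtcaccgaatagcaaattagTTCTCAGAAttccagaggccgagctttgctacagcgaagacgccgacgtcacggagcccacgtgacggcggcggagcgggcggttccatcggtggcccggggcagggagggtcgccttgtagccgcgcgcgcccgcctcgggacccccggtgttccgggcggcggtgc
Bcl6, lower start, chr16:23981234-23981533: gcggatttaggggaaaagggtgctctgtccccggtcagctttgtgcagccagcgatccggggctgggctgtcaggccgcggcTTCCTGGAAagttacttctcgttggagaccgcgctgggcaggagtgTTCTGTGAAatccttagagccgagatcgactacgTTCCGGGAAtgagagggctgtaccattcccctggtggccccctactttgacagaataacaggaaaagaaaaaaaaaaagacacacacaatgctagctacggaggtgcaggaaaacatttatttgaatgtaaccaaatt
Tbx21, chr11:97115282-97115581: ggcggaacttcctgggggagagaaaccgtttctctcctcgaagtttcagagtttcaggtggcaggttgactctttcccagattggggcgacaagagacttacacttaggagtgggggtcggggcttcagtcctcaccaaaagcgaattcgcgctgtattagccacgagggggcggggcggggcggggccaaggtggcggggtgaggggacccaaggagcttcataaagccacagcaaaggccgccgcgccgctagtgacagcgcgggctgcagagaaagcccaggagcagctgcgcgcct
Gata3, chr2:9878551-9878850: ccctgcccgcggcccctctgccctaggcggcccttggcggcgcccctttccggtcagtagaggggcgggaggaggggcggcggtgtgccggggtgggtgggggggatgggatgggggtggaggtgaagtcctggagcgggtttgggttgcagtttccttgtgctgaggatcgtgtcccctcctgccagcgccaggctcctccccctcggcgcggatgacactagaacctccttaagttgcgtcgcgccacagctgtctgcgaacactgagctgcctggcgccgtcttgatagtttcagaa
Prdm1, chr10:44458699-44458998: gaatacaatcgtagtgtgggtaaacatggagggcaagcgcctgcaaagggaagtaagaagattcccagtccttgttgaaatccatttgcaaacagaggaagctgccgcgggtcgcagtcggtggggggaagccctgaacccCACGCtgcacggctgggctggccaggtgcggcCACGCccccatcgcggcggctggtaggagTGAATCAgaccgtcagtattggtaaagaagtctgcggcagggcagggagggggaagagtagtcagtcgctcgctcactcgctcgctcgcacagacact

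The motifs were TCACACC for T-box factors, AGATAA for GATA factors, TGANTCA for AP-1, TTCNNNGAA for STAT factors, AGGTCA for ROR factors, GCGTG as the xenobiotic response element bound by the aryl hydrocarbon receptor, and the TATA box TATAAA. In the upper Bcl6 window the capitals are 1 STAT match, TTCTCAGAA, whose first base lies at -118 from the start site. The lower Bcl6 window holds 3 STAT matches, at -168, -122 and -88, while 8.30% of all 32851 RefSeq promoters of this table hold at least 1. The Prdm1 window holds the AP-1 match TGAATCA at -48, a motif found in 7.81% of promoters, and 2 matches to the xenobiotic response element, at -109 and -77, a motif found in 32.4%. Neither the Tbx21 window nor the Gata3 window holds any of the 7 motifs, and with 62.0% and 67.3% G and C both are GC-rich. A match is a stretch of letters and was not tested for binding.

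Peaks covered all 300 bases of the Tbx21, Gata3 and upper Bcl6 promoter windows in all 6 libraries. The lower Bcl6 window was covered for 300, 38 and 38 bases in KO replicates 1 to 3, against 25, 38 and 0 bases in WT replicates 1 to 3. At Prdm1 the window held no peak in any KO library and a peak over 101 bases in WT replicate 3. A separate peak from 44457992 to 44458565, starting 183 bp downstream of the Prdm1 start, was present in 3 KO and 2 WT libraries. The Eomes window was covered for 0 bases in each KO library, and for 0, 51 and 300 bases in the WT libraries. Both Foxp3 windows were free of peaks in every library.

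The libraries differed in depth and breadth. There were 39264 to 40582 peaks in the KO libraries and 40997 to 43507 in the WT libraries, covering 53.7 to 58.4 Mb in KO and 65.2 to 70.5 Mb in WT. Mean fragment coverage, recovered from the authors' peak values, was 1.85 to 2.29 in KO and 2.97 to 3.99 in WT, a ratio of 0.58. At the targeted gene, Slc2a3 with 5 kb on each side, peaks covered 3822, 5427 and 6128 bp in KO against 12507, 12443 and 12461 bp in WT. Of 10 Th17 marker genes, 8 to 9 carried a peak in KO libraries and 9 in WT libraries (Il22 had none in any library, and Il17f had none in KO replicates 1 and 3). The summed covered length of these markers was 84570 to 104195 bp in KO and 196625 to 221994 bp in WT. Peaks lay at 1 to 2 of 6 B cell markers in KO libraries and at 2 in WT libraries, at 2 to 3 of 7 CD8 T and NK cell markers in KO and at 3 in WT, and at 4 of 6 myeloid markers in both. Cd79b, Ms4a1 and Pax5, Cd8a, Gzma, Klrb1c and Ncr1, and Adgre1 and Lyz2 were at 0 throughout. Myeloid markers summed to 7893 to 9662 bp in KO and 12891 to 14235 bp in WT, B cell markers to 2819 to 3685 bp in KO and 4403 to 5279 bp in WT, and CD8 T and NK cell markers to 4643 to 5836 bp in KO and 5306 to 6151 bp in WT. The 5 T cell markers matched in the annotation summed to 60854 to 67172 bp in KO and 65669 to 66672 bp in WT, which overlap. The part of depth and of these markers in the results was not tested.

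Acetylation at the lineage factors split by gene. In the windows of Tbx21, Gata3 and Prdm1 the summed length under peaks was higher in KO cells, in the Ahr and Eomes windows it was lower, and in those of Foxp3, Bcl6 and Maf it did not pass the test. The windows held 39, 45 and 43 peaks in KO libraries against 32, 33 and 32 in WT libraries, while every KO library had fewer peaks in all than every WT library. More peaks need not mean more covered length. The Foxp3 window held 7, 8 and 7 peaks in KO libraries and 5, 4 and 4 in WT libraries, with less length covered in KO. Covered length, the bp under paired-end peaks in a window, was fitted with limma as log2(bp + 100) over 14244 gene windows. Over all windows 30.7% were called lower and 4.11% higher in KO at a Benjamini-Hochberg adjusted p under 0.05, with a median log2 fold change of -0.27. Among the 8 factors 3 were called higher and 2 lower. When every library was scaled to its total covered length, the median moved to -0.01 and the split over all windows became 1447 lower and 1271 higher, against 4375 lower and 585 higher unscaled. On that scale Bcl6 and Maf were called higher too (adjusted p = 0.0102 and 0.0403), and neither Ahr nor Eomes was called lower. The Ahr value was then -1.45 (adjusted p = 0.0968), against -1.72 unscaled. The Eomes value was -0.20 (adjusted p = 0.191), against -0.46 unscaled. This scaling multiplies each library by 1 constant, so a shift close to that of the median of all windows is built in.

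**Figure D1:**
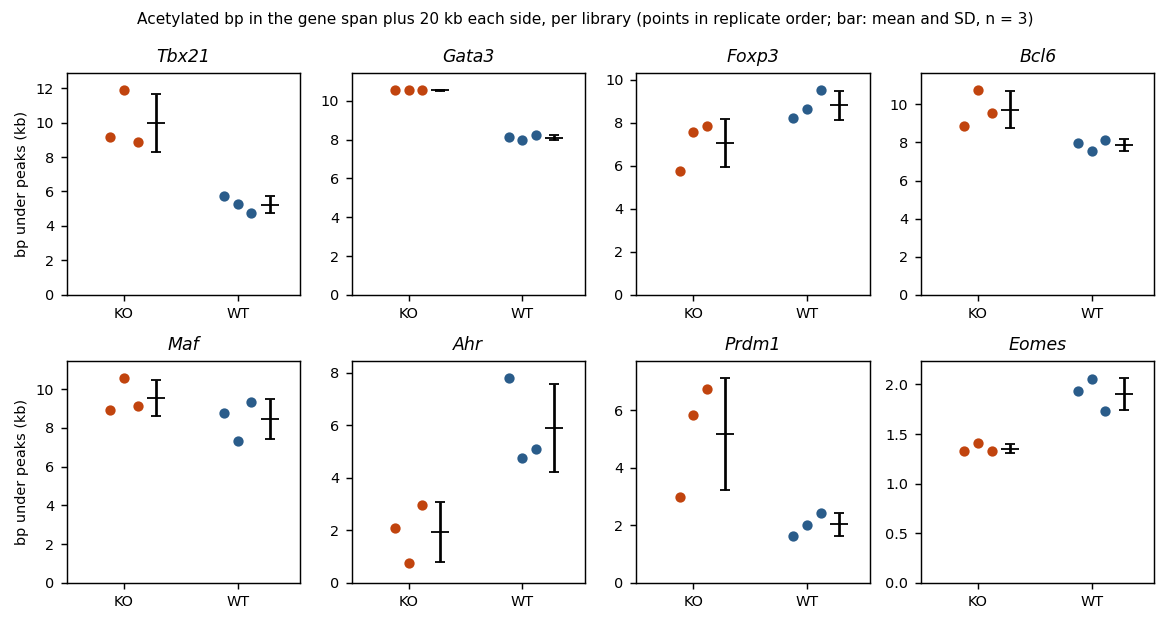
Covered length (kb under paired-end peaks) of each gene with 20 kb on each side, one point per library, KO left of WT, with mean and SD bars (n = 3 per genotype). The genotypes overlap in the Maf panel, where KO spans 8903 to 10593 bp and WT 7313 to 9326 bp, and in the other panels they do not. Over all gene windows, every KO library lay above every WT library in 6.57% and below in 48.5%, so separation alone is common.

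Tbx21 (chromosome 11, 97098007 to 97115331, minus strand), the Th1 master gene, had 9140, 11914 and 8846 bp under peaks in KO libraries, against 5709, 5261 and 4756 bp in WT libraries. Every KO library lay above every WT library, as in 6.57% of all windows. The means were 9967 ± 1693 bp in KO and 5242 ± 477 bp in WT (SD, n = 3 each), a ratio of 1.90. The exact permutation p was 0.1, two-sided, which is the smallest that 3 against 3 libraries allow. Covered length at Tbx21 rose by 0.91 ± 0.14 in log2 (limma, SE, adjusted p = 0.00848). In bulk chromatin, fewer cells carrying the mark and less mark per cell cannot be told apart, here and at the other genes. With 5 kb on each side the value was 0.35 and no longer called (adjusted p = 0.382). Within the gene span peaks covered 1214, 2223 and 1190 bp in KO and 712, 1464 and 1025 bp in WT, which overlap.

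The called regions at Tbx21 lay upstream of the gene, and the region over its start was not called. The authors' deposited table tested 9 regions in the window and called 4 higher and 0 lower at an FDR under 0.05, where 12.7% of all its regions are higher and 46.3% lower. A region of 3600 bp from 97126501 to 97130100, 11170 bp upstream, had a log2 fold change (FDR 0.000668) of 0.93 in the authors' deposited table, with 16 of its 24 windows of 150 bp going up. That region lies nearer to Tbkbp1, a gene for an adaptor of the kinase TBK1, at 6071 bp, so its target gene is not settled by position. Its summit heights, recovered from the authors' peak values and divided by mean coverage, were 71.9, 69.4 and 59.4 in KO libraries and 46.9, 48.0 and 52.2 in WT libraries, with all KO above all WT. Still farther out, from 97133251 to 97134450, all 8 windows went up in the authors' deposited table, the best of them by 1.16 in log2 (FDR 0.00135). There the summits stood at 11.9, 18.3 and 17.7 times the mean coverage in KO, and no WT library had a peak. The whole KO-only peak block runs from 97132853 to 97135164, with 1039, 2250 and 1431 bp covered in KO libraries and 0 bp in each WT library. It ends 1007 bp from Tbkbp1, so its target gene is not settled by position either. The region over the Tbx21 start (97114501 to 97116000) had 0.58 with an FDR of 0.129 in the authors' deposited table. Summits at that start were 33.5, 18.3 and 25.0 in KO and 10.8, 17.5 and 13.8 in WT, in units of mean coverage, again without overlap.

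Heights over mean coverage and the fold changes of the authors' table use different library scalings. Estimated over 1112 regions with a nearby summit in every library, heights over coverage stand 0.298 higher in KO on the log2 scale than the fold changes of the authors' deposited table. Heights describe peaks and were not tested, and the share of all regions where heights do not overlap between genotypes was not computed.

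**Figure D2:**
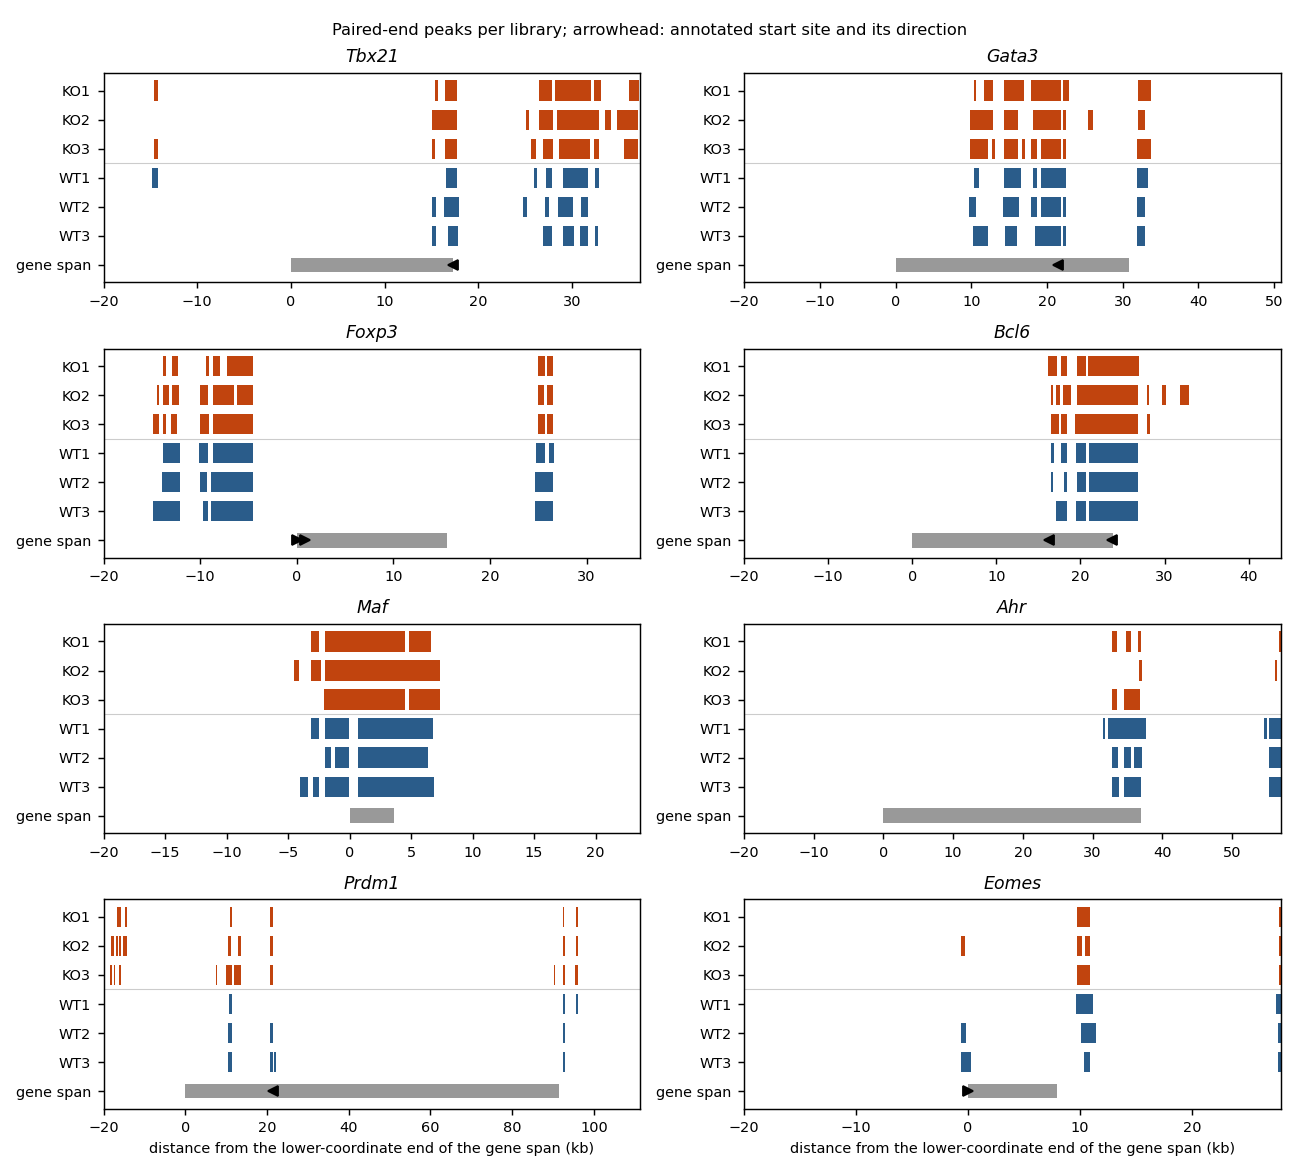
Paired-end peaks of each library (KO rows above WT rows) over each gene span (grey) and 20 kb on each side, by distance in kb from the lower-coordinate end of the gene. Arrowheads mark annotated start sites and their direction. KO-only blocks stand at the right edge of the Tbx21 panel and left of the Prdm1 span, and the Foxp3 span is empty in all 6 libraries.

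Eomes (chromosome 9, 118478186 to 118486132, plus strand), which acts with T-bet in Th1 and cytotoxic cells, had little acetylation in either genotype. Its window held 1327, 1407 and 1327 bp under peaks in KO libraries, against 1933, 2054 and 1731 bp in WT libraries. Every KO library lay below every WT library, as in 48.5% of all windows. Covered length fell by 0.46 ± 0.09 in log2 (limma, SE, adjusted p = 0.0151), against a median of -0.27 over all windows. Part of this length is the edge of a block at the neighbouring gene Golga4, described next. Without WT replicate 2 the adjusted p was 0.0514, and with 50 kb on each side the sign turned to 0.58 (adjusted p = 0.00609).

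Around the Eomes start, peaks were found in KO replicate 2 and in WT replicates 2 and 3, and the region there (118477651 to 118478100) had -0.45 with an FDR of 0.662 in the authors' deposited table. The other tested region of the window, from 118505701 to 118507500, was called lower, with a log2 fold change (FDR 0.0048) of -1.21 in the authors' deposited table. It overlaps Golga4, which encodes a golgin, and 2 of its 12 windows went down. Summits in that region were higher in KO, at 73.0, 79.0 and 83.3 times the mean coverage, against 48.4, 60.9 and 56.2 in WT. A further block 1751 bp beyond the gene, from 118487883 to 118489635, was present in all 6 libraries, with 1135, 854 and 1135 bp covered in KO and 1502, 1375 and 549 bp in WT, which overlap.

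Gata3 (chromosome 2, 9857078 to 9887953), the Th2 master gene, was acetylated around its start at 9878600 and in the downstream gene body. Covered length was 10550, 10579 and 10538 bp in KO libraries, against 8154, 7964 and 8216 bp in WT libraries. The libraries of each genotype lay close together, with means of 10556 ± 21.1 bp in KO and 8111 ± 131 bp in WT (SD, n = 3 each). The ratio of 1.30 had an exact permutation p of 0.1, two-sided, and the log2 rise was 0.38 ± 0.07 (limma, SE, adjusted p = 0.0129).

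Of 6 tested regions at Gata3, 2 were called higher and 0 lower in the authors' deposited table. Both lie inside the gene downstream of the start. At 9868651 to 9869400, 9200 bp downstream, all 5 windows went up, the best of them by 1.39 in log2 (FDR 4.62e-06) in the authors' deposited table. Summits there reached 25.4, 30.1 and 24.5 times the mean coverage in KO, and no WT library had a summit in the region, although WT replicate 3 had 617 bp of it under a peak. At 9871351 to 9873300 the log2 fold change was 0.71 (FDR 0.0157) in the authors' deposited table. Its summits were 43.2, 42.4 and 33.3 in KO and 22.3, 21.3 and 24.2 in WT, over mean coverage. The promoter region (9876301 to 9879600) was not called, with 0.55 and an FDR of 0.151 in the authors' deposited table, and neither was a region 948 bp beyond the upper gene end, with -0.49 (FDR 0.255) in the same table. At the promoter the summits stood at 54.1, 54.1 and 59.4 in KO and 30.6, 37.6 and 44.4 in WT.

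Foxp3 (chromosome X, 7579676 to 7595243, plus strand), which defines regulatory T cells, carried no acetylation peak in its span in any of the 6 libraries. The 5768, 7551 and 7820 bp under peaks in its window in KO libraries, against 8219, 8640 and 9532 bp in WT libraries, all lay outside the gene. Every KO library lay below every WT library, as in 48.5% of all windows, and the log2 difference was -0.33 ± 0.14 (limma, SE, adjusted p = 0.117), not called. Scaled to total covered length it was -0.06 (adjusted p = 0.805). KO replicate 3 alone had more than 2 peaks on chromosome Y (11), and the part of this in X-linked values was not tested.

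All 4 tested regions of the Foxp3 window overlap a neighbour. Of these, 3 overlap Ppp1r3f, which encodes a regulatory subunit of protein phosphatase 1, and 1 overlaps Ccdc22. The authors' deposited table called 3 of them lower and 0 higher. The log2 fold changes at Ppp1r3f were -0.85 (FDR 0.0125), -0.96 (FDR 0.00236) and -0.99 (FDR 0.114), and at Ccdc22 -0.99 (FDR 0.00734), in the authors' deposited table. Summits stood at 13.5, 9.61 and 11.5 times the mean coverage in KO and 15.8, 16.1 and 17.8 in WT in the Ppp1r3f region of lowest FDR (7569751 to 7570650). In each of the other 3 regions the genotypes overlapped, and from 7570801 to 7575300 summits were 58.4, 53.7 and 64.1 in KO and 56.6, 45.4 and 48.8 in WT. These values describe the neighbours, and for Foxp3 itself no measurement above the peak threshold was available in either genotype.

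Bcl6 (chromosome 16, 23965050 to 23988866, minus strand), the follicular helper factor, carried the tallest summits of the 8 windows. Covered length was 8864, 10773 and 9532 bp in KO libraries, against 7948, 7537 and 8148 bp in WT libraries. Every KO library lay above every WT library, as in 6.57% of all windows. The means were 9723 ± 969 bp in KO and 7878 ± 312 bp in WT (SD, n = 3 each). The log2 difference of 0.30 ± 0.10 was not called (limma, SE, adjusted p = 0.0633). It was called with single-read peaks (0.38, adjusted p = 0.0405).

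The call at Bcl6 in the authors' table lay over the upper start. A block of 6150 bp from 23985901 to 23992050, holding that start, had 31 of 41 windows going up and 0 down, with a log2 fold change (FDR 6.92e-08) of 1.31 at its best window in the authors' deposited table. That window lies at -1699 bp from the start site, upstream of the STAT match printed above. Summits in the block were 154, 145 and 167 times the mean coverage in KO libraries, and 115 and 112 in WT replicates 1 and 3 (the height in WT replicate 2 could not be recovered). Peaks covered 6047, 5944 and 6028 bp of it in KO and 5809, 5796 and 5809 bp in WT. At the lower start, the window with 3 STAT matches, the region from 23981251 to 23982150 had 4 of 6 windows going up and a log2 fold change of 0.59 in the authors' deposited table, without a call (FDR 0.107). Of the 5 regions in the window, all had positive values, 1 was called higher and 0 lower in the authors' deposited table.

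Prdm1 (chromosome 10, 44437174 to 44528558), whose product Blimp-1 opposes Bcl6, had the largest ratio of the 8 genes. Covered length was 2972, 5815 and 6730 bp in KO libraries, against 1626, 2019 and 2440 bp in WT libraries. The KO libraries had 6, 9 and 10 peaks there and the WT libraries 3, 3 and 4, while the widest single peaks, of 859, 962 and 1606 bp in KO and 582, 981 and 952 bp in WT, overlapped. All KO values of covered length lay above all WT values, as in 6.57% of all windows. The KO spread was wide, with means of 5172 ± 1960 bp in KO and 2028 ± 407 bp in WT (SD, n = 3 each). The ratio was 2.55 (exact permutation p = 0.1, two-sided), and covered length rose by 1.25 ± 0.33 in log2 (limma, SE, adjusted p = 0.0327). The call did not hold without KO replicate 2 or 3 (adjusted p = 0.0828 and 0.0800) or without WT replicate 1, 2 or 3 (0.0987, 0.0889 and 0.0662), and values without one library ran from 1.02 to 1.60. Only strong peaks gave 0.66 (-log10 q of at least 5, adjusted p = 0.397), 5 kb on each side 0.59 (adjusted p = 0.310) and single-read peaks 0.35 (adjusted p = 0.699).

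The highest log2 fold changes of all 38 regions in the authors' deposited table were at Prdm1. They lie beyond the lower-coordinate end of the gene, which on the minus strand is its 3′ side. At 44420851 to 44421300, 15874 bp past that end, the log2 fold change was 2.55 (FDR 1.88e-14) in the authors' deposited table, with 3 of 3 windows going up. The KO-only peak block around it, 44420189 to 44421461, had 859, 986 and 590 bp covered in KO libraries and 0 bp in each WT library. Next to it, 44419351 to 44420100 had 2.06 (FDR 4.79e-09) in the authors' deposited table, with peaks in KO replicates 2 and 3 and in no WT library. Inside the gene, 44449051 to 44449800 was called higher, with 0.91 (FDR 0.0115) in the authors' deposited table, while 44447551 to 44448600 had 0.31 (FDR 0.589). In the former, only KO replicate 3 had a paired-end peak, over 730 bp. A region 893 bp beyond the other end (44529451 to 44530050) had -0.42 (FDR 0.363) in the authors' deposited table. In all, 3 of 6 regions at Prdm1 were called higher and 0 lower in the authors' deposited table.

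**Figure D3:**
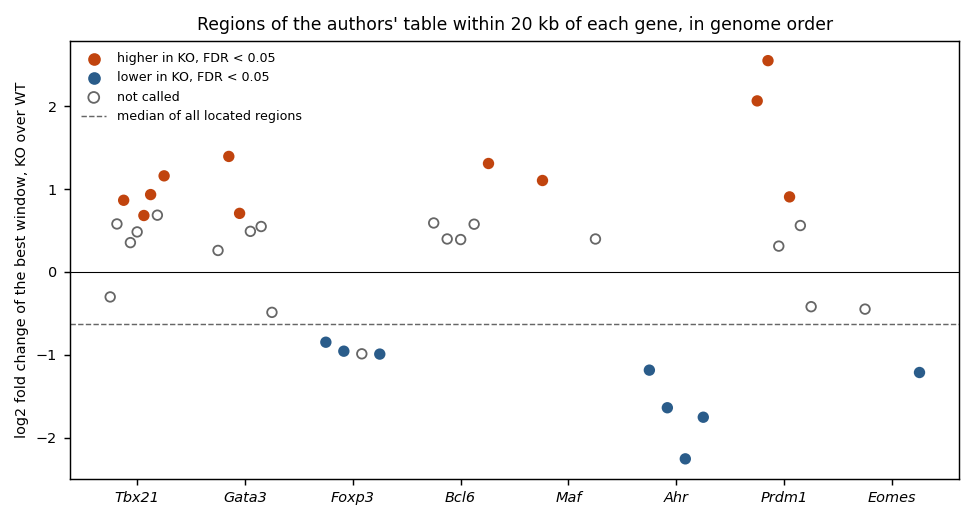
Log2 fold change (KO over WT, best window) of the 38 regions of the authors' deposited table, in genome order within each gene; filled points passed an FDR of 0.05 and the dashed line is the median of all located regions, -0.62. The 4 Ahr points and the 4 Foxp3 points are all below 0, and the 5 Bcl6 and 2 Maf points all above it.

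Maf (chromosome 8, 115703253 to 115706894) was under peaks from end to end in every KO library. Covered length in its window was 8903, 10593 and 9103 bp in KO libraries, against 8740, 7313 and 9326 bp in WT libraries. These values overlap, and neither test called a difference (exact permutation p = 0.4, two-sided, n = 3 each; limma 0.17 ± 0.13 in log2, SE, adjusted p = 0.310).

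Peaks ran through the whole 3642 bp of the Maf span in each KO library, and covered 2963 bp of it in each WT library. Just outside the lower gene end, at 115701451 to 115703250, all 12 windows went up in the authors' deposited table, the best of them by 1.11 in log2 (FDR 0.00124). The block over the gene (115703851 to 115709700) had 0.40 with an FDR of 0.832 and 0 of 39 windows going either way in the authors' deposited table. Its summits stood at 87.6, 98.7 and 100 times the mean coverage in KO and 67.9, 66.1 and 62.0 in WT.

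Ahr (chromosome 12, 35497979 to 35534989) went the other way. Its window had 2086, 734 and 2973 bp under peaks in KO libraries, against 7810, 4758 and 5102 bp in WT libraries. Every KO library lay below every WT library, as in 48.5% of all windows, with means of 1931 ± 1128 bp in KO and 5890 ± 1672 bp in WT (SD, n = 3 each), a ratio of 0.328. Covered length fell by 1.72 ± 0.50 in log2 (limma, SE, adjusted p = 0.0439; exact permutation p = 0.1, two-sided). That call did not hold without KO replicate 1 (adjusted p = 0.0775) or without WT replicate 1, 2 or 3 (0.126, 0.0904 and 0.100), with values from -2.11 to -1.17 over all single libraries left out. With 5 kb on each side the value was -1.47 (adjusted p = 0.156), and without the filter on low covered length it stayed at -1.72 (adjusted p = 0.0565).

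The authors' deposited table called all 4 Ahr regions lower, and 40 of their 41 windows went down. Over the upper gene end, from 35530801 to 35535300, the log2 fold change was -1.18 (FDR 4.61e-06) in the authors' deposited table, with 29 of 30 windows going down. Summits there stood at 30.3, 24.9 and 25.0 times the mean coverage in KO and 40.9, 30.7 and 33.0 in WT, with every KO value below every WT value. Peaks covered 1826, 418 and 2973 bp of this block in KO and 4500, 3073 and 3414 bp in WT. The deepest fall was outside the gene, 18612 bp past its upper end at 35553601 to 35554500, with -2.26 (FDR 1.47e-16) and 6 of 6 windows going down in the authors' deposited table. Peaks covered the whole 900 bp of it in each WT library, while KO libraries had 0, 316 and 0 bp. Regions at 35541901 to 35542200 and 35554651 to 35555100 had -1.64 (FDR 5.55e-07) and -1.75 (FDR 4.25e-08) in the authors' deposited table. In the former, no library of either genotype had a paired-end peak.

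**Figure D4:**
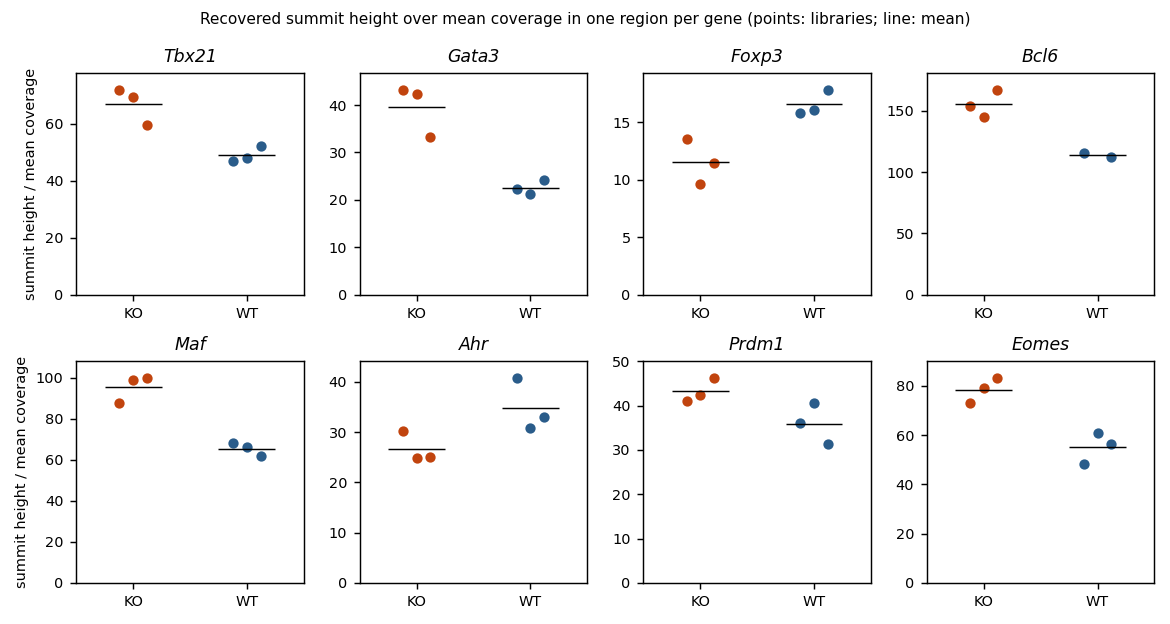
Summit height over mean coverage, recovered from the authors' peak values, in the region of each gene's window with the most recovered summits (where several tie, the one whose FDR in the authors' deposited table is lowest), one point per library, KO left of WT, with the mean as a line. KO points lie above WT points for Tbx21, Gata3, Bcl6, Maf, Prdm1 and Eomes, where the Eomes region overlaps Golga4 and the Prdm1 region is the one with -0.42 (FDR 0.363) in the authors' deposited table. They lie below them for Ahr and for Foxp3, where the region overlaps Ppp1r3f and the other 3 regions of the window, not plotted, have 6 summits too and overlap between genotypes. Heights over coverage stand 0.298 higher in KO on the log2 scale than the authors' fold changes. The share of all regions with such a separation was not computed, so it is not read as a trait of these genes.

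Counted together, 11 of the 38 regions (28.9%) were called higher and 8 (21.1%) lower in the authors' deposited table, where all its regions have 12.7% and 46.3%. Windows of 150 bp went up in 31.0% and down in 17.4% of these regions' windows, against 9.63% and 39.0% over all located regions of the authors' deposited table. The median log2 fold change was 0.44 over the 38 regions and -0.62 over all located regions of the authors' deposited table. Without regions within 2 kb of another protein-coding gene, an alternative chosen after the data were seen, 10 of 32 were higher and 4 lower. The 4 left lower were those of Ahr. Of 44 merged peak regions in the 8 windows, 2 were present in every KO and no WT library (those at Tbx21 and Prdm1) and 0 the other way round. Over the genome 2.11% of 56643 merged regions were KO-only and 5.04% WT-only by the same measure.

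The genes nearest to each factor in covered length over the 6 libraries, by Euclidean distance of log2(bp + 100), were Gstcd (0.33) and Ints12 (0.42) for Tbx21, and Ntan1 (0.15) and Ppdpf (0.18) for Eomes. Inpp5d (0.13) and Ptk2 (0.18) were nearest to Gata3, Cenpt (0.18) and Ip6k1 (0.19) to Foxp3, and Ecm1 (0.23) and Mmaa (0.24) to Bcl6. Vkorc1 (0.14) and Eif4g3 (0.23) were nearest to Maf. Prdm1, with Aqr (0.79) and Fahd1 (0.87), and Ahr, with Snai1 and Zfyve28 (both 1.14), had no neighbour as near.

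Genes linked to each factor were read from lists, each gene by its region of lowest FDR within 20 kb, a choice that favours changed regions. Of all 14752 genes with such a region in the authors' deposited table, 72.9% were called lower and 13.7% higher, with a median of -0.99. By covered length (limma), the shares over all windows were the 30.7% lower and 4.11% higher given above. The genes of a list are not independent, since neighbours can share regions: Ccl3 and Ccl4 of the Th1 list were read from 1 and the same region, and so were Stat5a and Stat5b among the other regulators. Neighbours also cross lists. On chromosome 1, the higher regions of Il1rl1 (Th2 list, from 40411051), Il18r1 and Il18rap (Th1 list, from 40466851 and 40514101) lie close together. Their gains are therefore not independent Th1 and Th2 results. The Th1 list had 6 of 11 genes lower and 3 higher by the authors' deposited table, with a median of -0.78. Fasl, a death ligand, had -2.20 (FDR 1.54e-12), Nkg7, a cytotoxic granule protein, -1.87 (FDR 8.12e-12), and Il12rb2, an IL-12 receptor chain, -1.86 (FDR 3.89e-12), while Il18r1, an IL-18 receptor chain, had 1.78 (FDR 5.84e-12), in the authors' deposited table. By covered length 2 of the 11 fell and 3 rose (limma). Ifng, the cytokine gene that T-bet drives, had no tested region within 20 kb.

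The Th2 list had 7 of 10 genes lower and 3 higher by the authors' deposited table, with a median of -0.91. The 3 higher genes were Il4, Il13 and Il1rl1, the receptor for IL-33, with 2.13 (FDR 3.11e-13), 1.96 (FDR 2.79e-08) and 2.44 (FDR 1.46e-20) in the authors' deposited table. For Il4, 7 of 10 regions, and for Il1rl1 11 of 17, were called higher there, and covered length in both windows rose too (limma log2 2.42, adjusted p = 0.0165, and 1.38, adjusted p = 0.00488). For Il13, 4 of 6 regions were called higher and 1 lower. The Il4 and Il13 values come from nearby regions of chromosome 11, at 53593051 to 53593650 and at 53614951 to 53615400. Which of these neighbouring genes each region belongs to is not settled by position, so the 2 genes are not independent. By covered length 7 of the 10 fell and 3 rose (limma). The chemokine receptor gene Ccr8 had -1.60 (FDR 2.04e-11) in the authors' deposited table.

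All 10 follicular helper genes were lower and 0 higher by the authors' deposited table, with a median of -1.49, while the block at Bcl6 itself was higher. Il21, a follicular helper and Th17 cytokine, had -2.77 (FDR 7.27e-33), the homing receptor Cxcr5 -2.23 (FDR 1.33e-13), Slamf6 -2.08 (FDR 1.28e-12) and the costimulator Icos -1.63 (FDR 7.11e-13), in the authors' deposited table. Of the 10, 7 fell and 0 rose by covered length (limma).

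The regulatory T cell list had 10 of 12 genes called lower and 2 called higher by the authors' deposited table, with a median of -1.06. Ctla4, an inhibitory receptor, had -1.77 (FDR 1.94e-15), and the Ikaros family genes Ikzf2 and Ikzf4 had -2.32 (FDR 2.46e-10) and -1.26 (FDR 5.50e-08), while Nt5e, the CD73 gene, had 1.41 (FDR 7.34e-08), in the authors' deposited table. By covered length 1 of the 12, Ikzf4, fell and 1, Nt5e, rose (limma).

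For the aryl hydrocarbon receptor, 7 of 10 targets and partners were lower and 1 higher by the authors' deposited table, with a median of -0.84. Its chaperone Hsp90ab1 had -1.16 (FDR 4.50e-05), Tiparp, which it induces, -1.09 (FDR 0.000169) and Entpd1, the CD39 gene, -1.27 (FDR 8.42e-06), in the authors' deposited table. By covered length 1 of the 8 with enough signal fell and 1 rose (limma).

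Of 13 genes linked to c-Maf and Blimp-1, 7 were lower and 5 higher by the authors' deposited table, with a median of -0.94. By covered length 4 fell and 2 rose (limma). Il21 and Ctla4, given above, are among the lower ones. The mucin-like Pdpn had 2.46 (FDR 9.65e-19) in the authors' deposited table, though 4 of its 7 regions were lower and 1 higher. At Lag3 the region of lowest FDR in the window, at 124879651 to 124888950 on chromosome 6, lies outside the Lag3 span and had 6.77 (FDR 3.44e-168) in the authors' deposited table, while covered length in the window fell by 0.66 in log2 (limma, adjusted p = 0.0110). Of the 8 regions in the Lag3 window, 4 were called lower and 2 higher. Lag3 counts among the 5 higher genes by that region outside its span, and which gene the gain belongs to was not tested.

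Among 29 other regulators of helper lineages 23 were lower and 3 higher by the authors' deposited table, with a median of -1.17. Rora, a driver of the Th17 programme itself, had -2.72 (FDR 7.59e-29), Stat3, which carries IL-6 signals, -2.15 (FDR 3.56e-16), Nfatc1 -3.25 (FDR 9.05e-15) and the repressor Nfil3 2.22 (FDR 3.95e-20), in the authors' deposited table. By covered length 12 of the 29 fell and 1, Nfil3, rose (limma). Some genes stand in more than 1 of the 7 lists, and the counts describe these libraries without a test of the list.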

How the data were processed

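H3K9/14ac was measured in 3 KO and 3 WT ChIP libraries. Per the submitters' processing notes, MACS2 2.2.6, deepTools 3.3.2, Bowtie2 2.3.5.1, cutadapt 2.8 and bcl2fastq 2.20.0.422 were used, with GRCm38 and mm10 named as builds. The sources used here do not state which program and scaling made the differential table, or how input served. Peaks were called per library, not on pooled samples. In the deposited peak lists, fold enrichment is a linear ratio, p-values and q-values are written as -log10, and a score stands beside them, all the authors' own. The lists on paired-end fragments were used, with the single-read lists as an alternative. The authors' deposited table gives, per region, how many windows go up or down, the best window's log2 fold change, and a p-value with its FDR. It holds no values per library, so it was not refitted. Significant regions have a score in a separate deposited list.

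Spans of 24128 regions were taken from that list, 16572 were rebuilt by joining 150 bp windows under single-read peaks (a rule that rebuilt 98.8% of the listed spans exactly), 207 were placed by the best window and 2 were not located. The sign was read as KO over WT, since 99.5% of tested regions at KO-only peaks were positive. Summit heights and mean coverage were solved from each peak's fold and p. Between 99.8% and 100.0% of a library's peaks matched their deposited -log10 p to within 0.01, and the solution was tested on simulated data, as was the limma fit. Gene spans and promoters are those of RefSeq, GRCm38.p6. The annotation gives no exons, so regions are not assigned to exons or introns.

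Covered length was compared by two-sided exact permutation tests, whose smallest p is 0.1, and with limma 3.58.1 (R 4.3.3) on log2(bp + 100) over gene windows with a mean of at least 500 bp, adjusted by Benjamini-Hochberg over all windows. Merged regions counted as present in a library on an overlap of 1 bp. Python 3.11.15 with pandas 2.3.3 and scipy 1.17.1 was used otherwise. The members, gene lists and tests were chosen with earlier results of these data known. In each window the text names the regions at the gene start or ends, those of lowest FDR in each direction and the KO-only or WT-only blocks, with up to 4 called genes of each list (lowest FDR first) and the 2 genes nearest in covered length; the other regions named were chosen after their values were seen. Some genes are not reported here. Same-numbered KO and WT libraries did not deviate together (correlations across windows of -0.014, -0.031 and 0.006), so replicate numbers were not taken as pairs. Alternatives were single-read peaks, stricter peaks, equal peak numbers, scaling to total covered length, windows of 5 and 50 kb, other thresholds, each library left out, and a replicate block.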

Additional observations from a re-analysis of the deposited data

How the results depend on the processing

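Of 104 alternatives for the covered length of the 8 factors, 102 kept the direction, but many could not have turned it. The replicate block reuses the main value. Where the genotypes do not overlap, leaving out 1 library cannot change the sign, so the count is no measure of robustness. With 5 kb on each side Foxp3 came to 0.00, and with 50 kb Eomes turned to 0.59. Leaving out 1 library gave log2 ratios of 0.78 to 1.01 for Tbx21, 0.37 to 0.39 for Gata3, -0.40 to -0.19 for Foxp3, 0.22 to 0.37 for Bcl6, 0.08 to 0.25 for Maf, -2.06 to -1.22 for Ahr, 1.11 to 1.63 for Prdm1 and -0.56 to -0.44 for Eomes. In the limma fit Eomes also turned to 0.58 at 50 kb, and the other changes of call are given with each gene above. The cause was not tested.

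With the replicate block, sign-flip tests over 3 pairs reached no p below 0.25, the limma counts over all windows were 2585 lower and 375 higher, and Gata3 missed the threshold at 0.38 (adjusted p = 0.0583); no other factor's call changed under the block. Scaled to total covered length the counts were 1447 lower and 1271 higher, with 5 kb 2883 were lower, and without 1 library 2221 to 3973 were lower and 301 to 496 higher.

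Of the calls in the authors' deposited table, 8 lower and 11 higher became 7 lower and 7 higher at an FDR under 0.01. They were 5 lower and 6 higher where the log2 fold change also had to reach 1 in either direction. Within 5 kb 1 was lower and 5 higher, and within 50 kb 10 were lower and 20 higher. With coverage scaling and that fold 3 were lower and 10 higher, and without regions near other genes 4 were lower and 10 higher. KO-only blocks numbered 1 with strict peaks, 1 with presence at 50% of the region, 0 within 5 kb, 5 within 50 kb, and 2 to 5 without 1 library (5 without KO replicate 1). WT-only blocks numbered 1 with single-read peaks, 1 with presence at 50%, and 0 to 0 without 1 library. The median over a window's regions in the authors' deposited table was 0.52 at Gata3, 0.58 at Bcl6, -1.70 at Ahr and 0.73 at Prdm1. Coverage scaling moved the region of lowest FDR near Foxp3, which overlaps Ppp1r3f, from -0.96 to -0.66. Blocks and heights below the lowest deposited peak threshold (-log10 q of 3.00) were not measured, and KO libraries had lower coverage.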
